A study of Drosophila melanogaster with 6 samples.

Results

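Odorant receptor genes (Or genes) were described in fly heads by taking every gene whose FlyBase symbol is Or followed by a number and a letter, or is Orco. This rule uses names only, and it found 58 of the 11922 gene identifiers in the files. The BDGP6 annotation holds 60 such symbols, and the other 2, Orco and Or85e, were not analysed here. Their levels were compared between HFD and ND, with 3 RNAseq samples per diet.

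Flies of both diets were wild-type Oregon-R virgin females, 5 days old by the labels. The HFD group was kept for 5 d on food made from ND with coconut oil added, and the ND group was kept on ND, the normal fly food. The study describes its samples as biological replicates of pooled flies, and the tissue as heads with associated tissues. Each sample therefore averages over many animals and over antennae, maxillary palps, brain, eyes and other head tissue, and carries no information on single receptor neurons.

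Odorant receptors are membrane proteins of the olfactory sensory neurons in the antenna and the maxillary palp. In the fly each receptor pairs with the co-receptor Orco to form an ion channel that opens when an odor binds, and most neurons use a single receptor gene or a small fixed set, which sets the odors the neuron answers to. The antennal neurons sit in hairs of different shape, called basiconic, trichoid, intermediate and coeloconic sensilla, and the larva has a nose of its own with a partly different set of receptors. Food odors such as fruit esters are detected mainly by basiconic neurons and pheromones mainly by trichoid neurons.

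The values are FPKM, which count sequenced fragments relative to the exon length of the gene and to the depth of the library, so levels of different genes can be compared per length. Odorant receptor mRNA was scarce in whole heads. The median level of the 58 genes over the 6 samples was 0.349 FPKM, against 6.73 FPKM over all 11922 identifiers. A mean of at least 0.5 FPKM, the filter used before testing, was reached by 24 of the 58 genes (41.4%) and by 8362 of all identifiers (70.1%). Another 21 receptor genes lay under the filter but above 0 in some sample, and 13 were listed at 0 in every sample (22.4%, against 16.6% of all identifiers). The filter keeps genes by their mean, so the 24 that passed are not a random part of the family. Or10a, Or33c, Or9a and Or71a passed only through their HFD samples, with ND means of 0.450, 0.382, 0.420 and 0.497 FPKM. Their HFD means were 0.701, 0.737, 0.668 and 1.11 FPKM, so the filter favoured positive differences here. Or98a, with means of 0.304 FPKM in HFD samples and 0.598 FPKM in ND samples, did not pass.

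Depth was estimated from the values themselves. The files list no fragment totals, but low FPKM values come in multiples of the value of a single fragment, and the spacing of these multiples gave an estimated 8.97, 5.34 and 11.87 M fragments in HFD replicates 1, 2 and 3, and 9.58, 8.16 and 10.32 M fragments in ND replicates 1, 2 and 3. HFD replicate 2 was the shallowest by this estimate, but for it a depth near 2 times the estimate scored similarly and the lower was taken. Its fragment counts below may therefore be too low. In HFD replicate 2, 32 receptor genes were listed at 0, against 19 and 20 in the other HFD samples and 17 to 25 in the ND samples. For 6 receptor genes HFD replicate 2 was the only sample at 0. The part of depth in these zeros was not tested. ND replicate 3 stood apart from the rest, and its log2 values correlated with theirs at 0.842 to 0.920, while the correlations among HFD replicates 1 and 3 and ND replicates 1 and 2 were 0.971 to 0.979. HFD replicate 2 also stood apart from these 4, at 0.934 to 0.954. Genes of digestive enzymes known from the gut summed to 17400, 7856 and 24300 FPKM in HFD samples, against 25620, 26920 and 74.4 FPKM in ND samples. All 24 of those tested were lowest in ND replicate 3, for Jon65Ai, Jon65Aii, Jon66Ci and Jon66Cii in a tie with HFD replicate 2. ND replicate 3 held the highest value for 9 of the 24 tested receptor genes and for 38.7% of all genes tested, and the part of its different make-up in the receptor results was not tested.

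Or43b (FBgn0026393), a receptor of small basiconic sensilla, was the most abundant member. It had 10.8, 15.03 and 12.6 FPKM in HFD samples, against 11.4, 12.2 and 18.2 FPKM in ND samples. Its lowest sample lay above the highest sample of every other receptor gene, and the diets overlapped. Its 3 exons lie on chromosome 2R, minus strand, between positions 7920835 and 7922604 of BDGP6, and 40.7% of its exon length overlaps Cul1 on the other strand. Cul1, a subunit of ubiquitin ligases, was not analysed here, and since the counting is not stated to use strand, reads of the 2 genes could not be told apart.

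Or45b came next with 4.30, 3.44 and 4.32 FPKM in HFD samples, against 4.45, 3.70 and 5.13 FPKM in ND samples. It is known mainly from the larva, and its exons are wholly overlapped by the antisense RNA asRNA:CR45281, so its level cannot be assigned to the receptor gene alone. Or59b, a receptor for methyl acetate in large basiconic sensilla, had 3.35, 4.40 and 4.34 FPKM in HFD samples, against 3.27, 2.89 and 2.997 FPKM in ND samples. Or42b, a receptor for fruit and vinegar esters, had 3.35, 2.19 and 2.46 FPKM in HFD samples, against 2.35, 2.43 and 3.38 FPKM in ND samples. For Or42b the ranges of the diets nearly coincided.

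**Figure D1:**
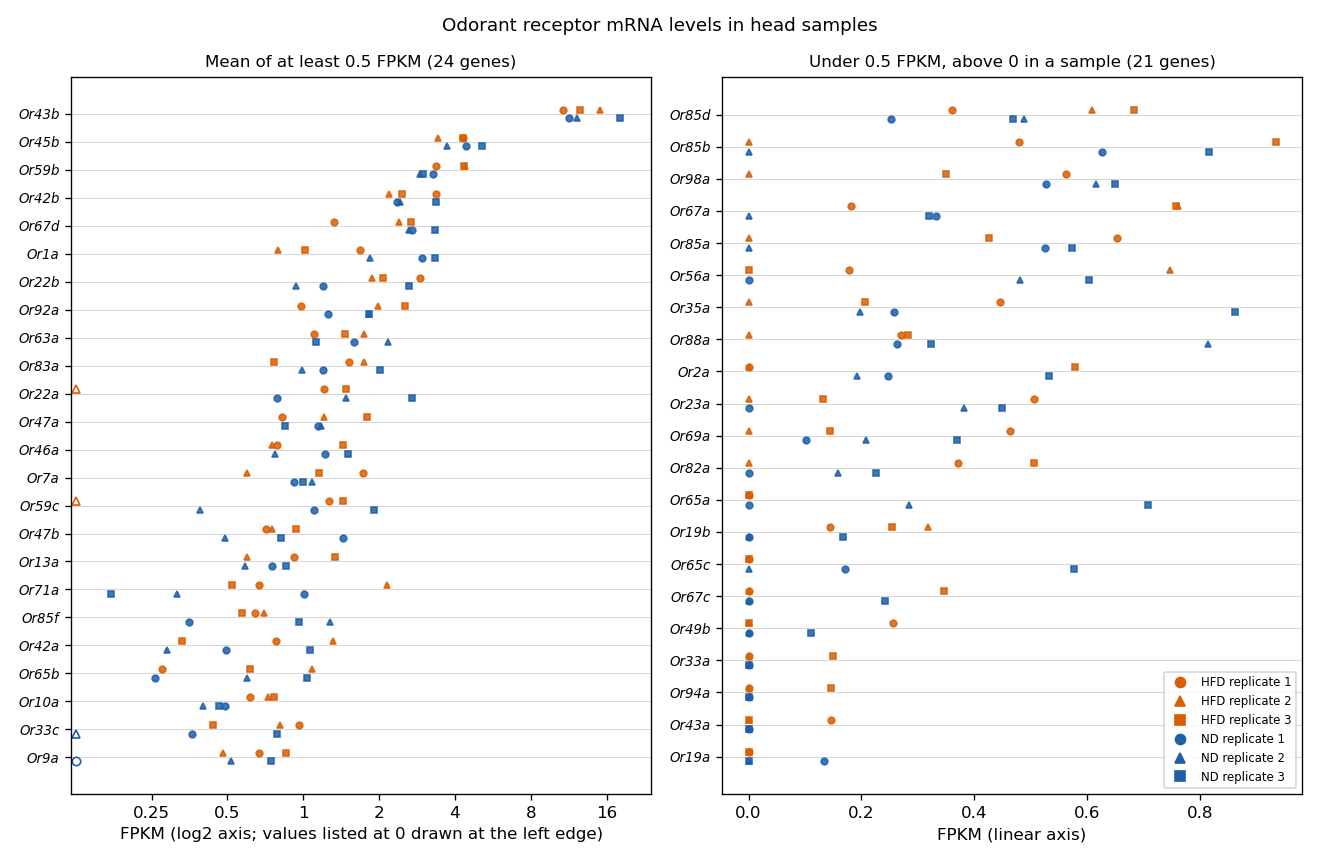
FPKM of the 24 odorant receptor genes that passed the filter (left, log2 axis, values at 0 drawn open at the left edge) and of the 21 under the filter but above 0 in a sample (right, linear axis), each ordered by mean, with 1 point per sample, HFD orange and ND blue. Or43b lies apart at 10.8 to 18.2 FPKM, and the other genes form a continuous series. HFD and ND points are mixed in all genes but Or1a, Or59b and Or10a.

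Below these 4 genes, the tested members formed a continuous order. Of the 23 pairs of neighbours in the order of means, 22 had overlapping sample ranges, the exception being Or43b and Or45b. The means of Or67d, Or1a and Or22b over the 6 samples were 2.50, 1.94 and 1.94 FPKM, and the 15 genes from Or92a to Or10a by mean had values between 0 and 2.69 FPKM in single samples. Or33c and Or9a were the lowest of the tested genes, each at 0 in 1 ND sample. With the estimated depths, Or43b rested on 113 to 265 fragments per sample and Or1a on 5 to 41, while Or65b, a pheromone-sensillum gene, rested on 3 to 13. The p-values below therefore carry counting error as well as the spread between replicates.

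HFD and ND were compared for all 8362 genes that passed the filter on the scale of log2(FPKM + 1) with moderated linear models in limma, and p-values were adjusted over all of them by the Benjamini-Hochberg method. Every log2 difference given is HFD minus ND on this scale, on which differences of scarce transcripts are compressed. No odorant receptor gene passed an adjusted p of 0.05 in limma, against a background of 4 of 8362 genes (0.0478%), and the adjusted p of the 24 receptor genes lay between 0.610 and 0.998. At an unadjusted p under 0.05, none was higher in HFD samples and 1 was lower, Or1a, where 3.11% of all genes tested were higher and 3.6% lower.

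Of the 24 receptor genes, 12 had a log2 difference above 0 and 12 below 0, against 42.8% above 0 among all genes tested. The 12 above 0 include Or10a, Or33c, Or9a and Or71a, which passed the filter only through their HFD samples. Their median log2 difference was 0.0006, beside -0.027 for all genes tested. The median size of the difference, without its sign, was 0.16 for the receptor genes and 0.11 for all genes tested. Intervals were wider for the receptor genes, with a median distance of 0.56 from the estimate to each bound, against 0.33 for all genes tested. For 18 of the 24 the 95% interval lay within -1 and 1 on the log2(FPKM + 1) scale. For the other 6 (Or1a, Or22a, Or22b, Or33c, Or59c and Or71a) it reached one of these bounds, so a difference of that size was not excluded. On this scale a difference of 1 stands for a larger relative change in FPKM the scarcer the gene. An interval within these bounds can therefore still include a doubling of FPKM in a scarce gene. In bulk samples such as these, fewer cells of a type and less RNA per cell cannot be told apart.

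**Figure D2:**
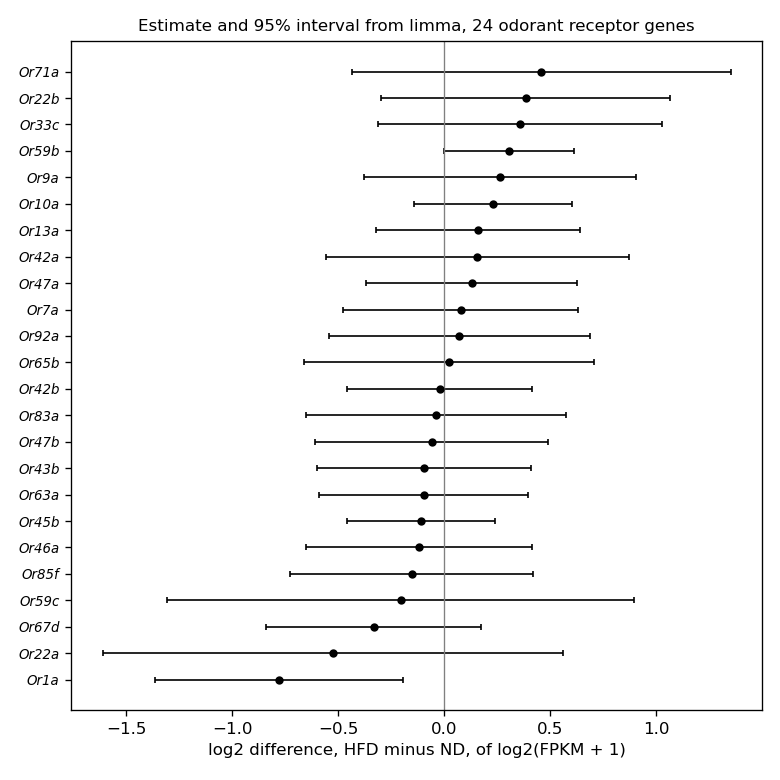
Log2 difference (HFD minus ND) of log2(FPKM + 1) for the 24 odorant receptor genes that passed the filter, with the 95% interval from limma, ordered from the highest to the lowest. The interval of 23 genes holds 0, and only that of Or1a, at -0.78, does not.

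Or1a (FBgn0029521), a receptor known mainly from the larva, stood lowest in this order. Its level was 1.69, 0.791 and 1.01 FPKM in HFD samples, against 2.97, 1.83 and 3.35 FPKM in ND samples. All HFD samples lay below all ND samples, and the closest pair was HFD replicate 1 and ND replicate 2. The means were 1.16 ± 0.466 FPKM in HFD samples and 2.72 ± 0.789 FPKM in ND samples (SD, n = 3 each), a ratio of 0.428.

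In limma, the log2 difference of Or1a was -0.78 ± 0.24 (SE; 95% interval from -1.36 to -0.19), with an unadjusted p of 0.0176 and a Benjamini-Hochberg adjusted p of 0.610. The exact permutation test, two-sided over the 20 assignments of the samples, gave p = 0.1, the smallest that 3 against 3 samples allow. Or1a was the only receptor gene whose HFD samples all lay below the ND samples, where 8.07% of all genes tested did so. Counts behind it were low, with about 18, 5 and 14 fragments in HFD samples, against 34, 18 and 41 in ND samples. Leaving out 1 sample at a time kept the direction, with log2 differences from -0.96 to -0.65, but the unadjusted p then passed 0.05 only without HFD replicate 1 or without ND replicate 2 (0.0119 and 0.00863) and lay between 0.0514 and 0.0570 without any of the other 4. The 3 exons of Or1a, between 315123 and 316566 on chromosome X, plus strand, overlap no other annotated gene.

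The group of 13 genes known mainly from the larva was described together. Only Or45b, Or1a, Or63a and Or83a of them passed the filter, 1 more (Or94a) was above 0 in a single sample, and 8 were at 0 throughout. All 4 tested genes had a negative log2 difference, but for 3 of them it was between -0.11 and -0.04. Their group sum was 8.61, 7.72 and 7.71 FPKM in HFD samples, against 10.2, 8.69 and 11.6 FPKM in ND samples. The HFD sums all lay below the ND sums, the closest pair being 8.61 FPKM in HFD replicate 1 and 8.69 FPKM in ND replicate 2, and Or45b and Or1a made up most of each sum. Without Or1a, a choice made after its values were seen, the sums were 6.93, 6.92 and 6.70 FPKM in HFD samples, against 7.24, 6.86 and 8.26 FPKM in ND samples, and the diets overlapped.

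Or63a had 1.10, 1.74 and 1.47 FPKM in HFD samples, against 1.597, 2.16 and 1.12 FPKM in ND samples, and the diets overlapped. Or83a had 1.52, 1.74 and 0.765 FPKM in HFD samples, against 1.20, 0.992 and 2.01 FPKM in ND samples. Or83a lies wholly within exons of CG1172 on the other strand, a gene listed at 13.8 to 14.99 FPKM in HFD samples, against 15.5 to 17.3 FPKM in ND samples, so the reads of Or83a may not be its own.

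Large basiconic sensilla hold receptors for common food odors, and 6 of the 8 genes assigned to them were tested. Of these, 4 had a positive and 2 a negative log2 difference, with a median of 0.15. The positive ones include Or10a, which passed the filter only through its HFD samples. Their sum was 13.5, 11.2 and 15 FPKM in HFD samples, against 10.5, 9.96 and 15.4 FPKM in ND samples, so the diets overlapped through ND replicate 3.

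Or59b (FBgn0034865) was the member closest to the threshold among those higher in HFD samples. Its values, given above, placed all 3 HFD samples above the ND samples, the closest being 3.35 FPKM in HFD replicate 1 and 3.27 FPKM in ND replicate 1. The mean was 4.03 ± 0.588 FPKM in HFD samples and 3.05 ± 0.192 FPKM in ND samples (SD, n = 3 each), a ratio of 1.32. By limma the log2 difference was 0.31 ± 0.12 (SE), with an unadjusted p of 0.0502 and an adjusted p of 0.736, and the exact permutation test gave p = 0.1. Or59b and Or10a were the 2 receptor genes with all HFD samples above all ND samples, an order that 4.54% of all genes tested showed. Or10a, with an ND mean of 0.450 FPKM, was tested only through its HFD samples, so the filter favoured this order for it. The 3 exons of Or59b, between 23470165 and 23471775 on chromosome 2R, minus strand, overlap no other annotated gene.

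Or10a (FBgn0030298), a receptor for methyl salicylate, had 0.615, 0.724 and 0.763 FPKM in HFD samples, against 0.487, 0.399 and 0.465 FPKM in ND samples. The mean was 0.701 ± 0.0768 FPKM in HFD samples and 0.450 ± 0.0460 FPKM in ND samples (SD, n = 3 each). Its log2 difference was 0.23 with a 95% interval from -0.14 to 0.60 (limma, unadjusted p = 0.180, adjusted p = 0.931). Every exon of Or10a is shared on the same strand with Gr10a, a gustatory receptor gene listed at 1.19, 1.94 and 1.16 FPKM in HFD samples, against 1.19, 1.69 and 1.65 FPKM in ND samples. Gr10a had no such order between the diets, and how the authors split shared reads is not stated, so the value of Or10a is uncertain.

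Or22a and Or22b are neighbouring copies on chromosome 2L, used by the same neurons and known for fruit esters such as ethyl hexanoate. Or22b had 2.91, 1.87 and 2.07 FPKM in HFD samples, against 1.20, 0.934 and 2.63 FPKM in ND samples, a log2 difference of 0.38 (limma, adjusted p = 0.942). Or22a had 1.21, 0 and 1.47 FPKM in HFD samples, against 0.785, 1.48 and 2.69 FPKM in ND samples, a log2 difference of -0.53 (limma, adjusted p = 0.944). Neither difference exceeded the spread of the samples, and the 2 genes had opposite signs. The value of Or22a moved to -0.12 without HFD replicate 2, its sample at 0, to -0.26 without ND replicate 3 and to -1.41 with a pseudocount of 0.1. That of Or22b moved to 0.66 without ND replicate 3, to 0.20 without ND replicate 2, to 0.25 without HFD replicate 1 and to 0.60 with a pseudocount of 0.1. The ratio of Or22a to Or22b was 0.416, 0 and 0.713 in HFD samples, against 0.653, 1.58 and 1.02 in ND samples, so it overlapped between the diets. As similar copies their reads could be split by the mapping, and with uniquely mapped reads alone part of either level may be lost.

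Or92a, a receptor for diacetyl, had 0.976, 1.98 and 2.54 FPKM in HFD samples, against 1.26, 1.82 and 1.82 FPKM in ND samples. The HFD samples were more spread than the ND samples, on both sides of them. Or85b and Or85a, the remaining genes of this group, lay under the filter. Both were at 0 in HFD replicate 2 and in ND replicate 2, the 2 samples of lowest estimated depth if the lower estimate holds for HFD replicate 2.

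**Figure D3:**
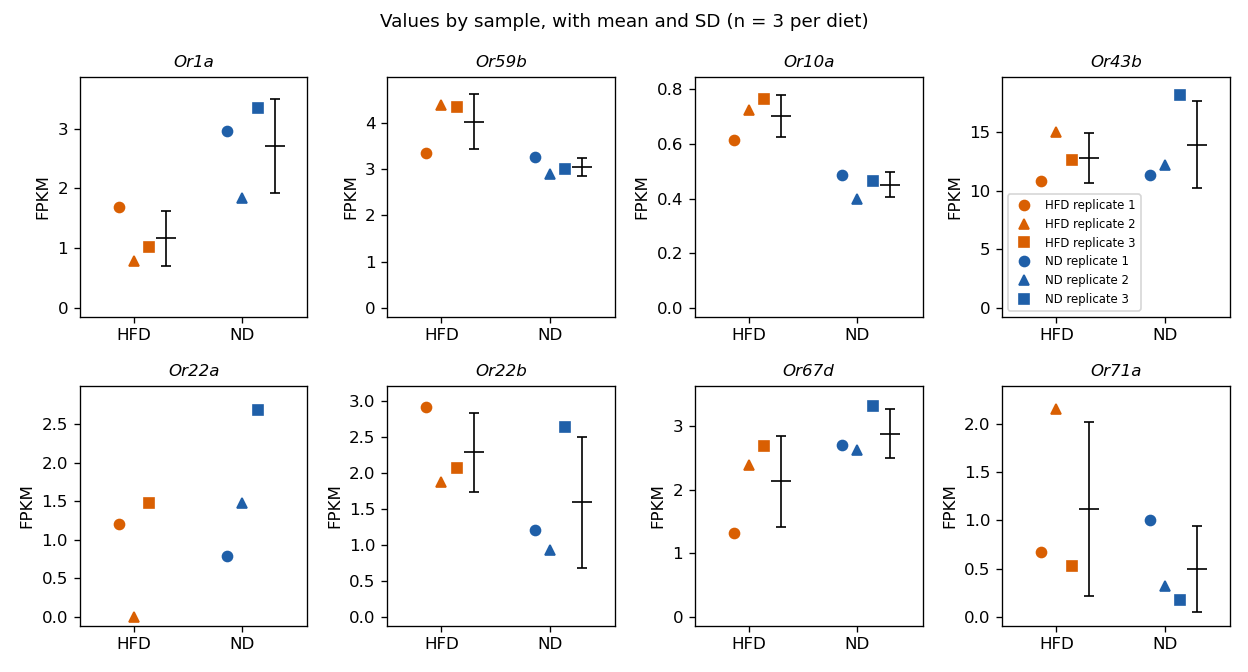
FPKM by sample for 8 odorant receptor genes, HFD (orange) left of ND (blue), with mean and SD (n = 3 per diet). No mean is drawn for Or22a, which is listed at 0 in HFD replicate 2. The diets separate for Or1a (lower in HFD), Or59b and Or10a (higher in HFD), and overlap for the other 5 genes.

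Small basiconic sensilla held the most members, 17, of which 6 passed the filter. Their sum was 17.6, 20.1 and 20.6 FPKM in HFD samples, against 15.5, 18.3 and 25.1 FPKM in ND samples, and Or43b alone gave most of it. Log2 differences in this group lay between -0.15 and 0.26, with 4 positive and 2 negative. The highest was that of Or9a, which passed the filter only through its HFD samples.

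Or43b itself had means of 12.8 ± 2.13 FPKM in HFD samples and 13.9 ± 3.71 FPKM in ND samples (SD, n = 3 each), a log2 difference of -0.09 with a 95% interval from -0.60 to 0.41. Or47a, a receptor for pentyl acetate, had 0.821, 1.21 and 1.79 FPKM in HFD samples, against 1.14, 1.17 and 0.848 FPKM in ND samples. Or7a had 1.72, 0.596 and 1.16 FPKM in HFD samples, against 0.922, 1.08 and 0.997 FPKM in ND samples. Both genes varied more among the HFD samples than among the ND samples.

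Or9a was at 0.667, 0.480 and 0.857 FPKM in HFD samples, against 0, 0.517 and 0.743 FPKM in ND samples, and overlapped between the diets. Or85f, which shares its neuron with Or49a, was at 0.646, 0.699 and 0.573 FPKM in HFD samples, against 0.352, 1.28 and 0.964 FPKM in ND samples. Its partner Or49a was at 0 in all 6 samples, so this pair did not appear at equal levels. The other tested gene of the group, Or13a, is a receptor for octenol and had a log2 difference of 0.16 (limma, adjusted p = 0.988).

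Under the filter were Or98a, Or67a, Or56a, Or69a, Or82a, Or67c, Or49b and Or33a, the highest of them at a mean of 0.451 FPKM. Or56a, the geosmin receptor, was above 0 in 4 samples, and Or33a, expressed in the same neurons, in 1. Neither pattern followed the diet.

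Trichoid and intermediate sensilla hold the pheromone receptors and their neighbours, and 3 of these 12 genes were tested. Or67d, the receptor for the male pheromone cis-vaccenyl acetate, had 1.32, 2.39 and 2.68 FPKM in HFD samples, against 2.70, 2.62 and 3.32 FPKM in ND samples. HFD replicate 1 was the lowest, and HFD replicate 3 lay between the ND samples. The log2 difference was -0.33 with a 95% interval from -0.84 to 0.17 (limma, unadjusted p = 0.159, adjusted p = 0.907), and it was -0.13 without HFD replicate 1.

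Or47b, a receptor for fly-derived fatty acid esters, had a log2 difference of -0.06 (limma, adjusted p = 0.998). Or65b had 0.276, 1.08 and 0.618 FPKM in HFD samples, against 0.257, 0.598 and 1.04 FPKM in ND samples. Its neighbours in the same cluster on chromosome 3L, Or65a and Or65c, were at 0 in all HFD samples. In the ND samples Or65a had 0, 0.285 and 0.708 FPKM and Or65c had 0.171, 0 and 0.576 FPKM, which rest on at most 9 and 7 fragments per sample. Because 1 ND sample was at 0 for each of them, the diets overlapped.

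Of the near-identical pair Or19a and Or19b on chromosome X, Or19b had 0.145, 0.318 and 0.254 FPKM in HFD samples, against 0, 0 and 0.168 FPKM in ND samples. Or19a was above 0 only in ND replicate 1, with about 1 fragment by the estimated depth, and unique mapping may leave part of both uncounted. Or88a, Or2a, Or23a and Or43a were under the filter as well, and Or83c was at 0 throughout. The group sum was 3.38, 4.54 and 5.48 FPKM in HFD samples, against 5.22, 5.38 and 7.93 FPKM in ND samples, with HFD replicate 3 inside the ND range.

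Maxillary palps carry a small fixed set of receptors, of which 6 had values here, and 5 of them were tested. Their log2 differences ran from -0.21 to 0.46, with 3 positive and 2 negative. Or71a and Or33c, both positive, passed the filter only through their HFD samples. Or71a, a receptor for ethylphenols from plant food, had the highest, 0.46, with 0.667, 2.15 and 0.521 FPKM in HFD samples, against 1.003, 0.316 and 0.172 FPKM in ND samples. HFD replicate 2 alone was high, the log2 difference was 0.13 without it, and the 95% interval ran from -0.44 to 1.35 (limma, adjusted p = 0.944).

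Or59c had 1.27, 0 and 1.44 FPKM in HFD samples, against 1.10, 0.388 and 1.91 FPKM in ND samples. Or33c had 0.965, 0.807 and 0.440 FPKM in HFD samples, against 0.363, 0 and 0.784 FPKM in ND samples. Or46a had 0.790, 0.754 and 1.44 FPKM in HFD samples, against 1.22, 0.774 and 1.499 FPKM in ND samples. In all 3 genes the diets overlapped, and the exons of Or46a are wholly overlapped by other annotated genes on both strands. Or42a had a log2 difference of 0.16 (limma, adjusted p = 0.998), and Or85d, under the filter, was above 0 in every sample. Their sum was 4.83, 5.64 and 4.86 FPKM in HFD samples, against 4.43, 2.25 and 5.89 FPKM in ND samples.

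Or35a, the coeloconic member, had 0.446, 0 and 0.207 FPKM in HFD samples, against 0.257, 0.198 and 0.862 FPKM in ND samples. Or98b was assigned to no sensillum and was at 0 throughout. The 13 genes at 0 in all samples were Or22c, Or24a, Or30a, Or33b, Or45a, Or49a, Or59a, Or67b, Or74a, Or83c, Or85c, Or94b and Or98b, most of them known mainly from the larva.

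Some genes of 1 cluster had similar levels, as Or22a and Or22b did, with means of 1.27 and 1.94 FPKM over the 6 samples and overlapping ranges. Others had unlike levels. On chromosome 2R, Or59b had a mean above 3 FPKM on both diets, its neighbour Or59c had 0 to 1.91 FPKM, and Or59a was at 0. On chromosome 2L, Or33c passed the filter, Or33a was above 0 in 1 sample and Or33b in none. Or42b exceeded Or42a in every sample, with Or42a at 0.232, 0.601 and 0.134 of the level of Or42b in HFD samples, against 0.210, 0.119 and 0.314 in ND samples.

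Summed over all 58 genes, odorant receptor FPKM was 48.4, 49.2 and 53.8 in HFD samples, against 46.1, 44.8 and 66.7 in ND samples. The means were 50.5 ± 2.95 FPKM in HFD samples and 52.5 ± 12.3 FPKM in ND samples (SD, n = 3 each), a ratio of 0.960. The highest and the lowest sum were both ND samples, and the difference was smaller than the spread. Receptor mRNA made up between 0.00878% and 0.0145% of the summed FPKM of a sample. Without Or43b the sums were 37.6, 34.2 and 41.2 FPKM in HFD samples, against 34.7, 32.6 and 48.6 FPKM in ND samples.

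**Figure D4:**
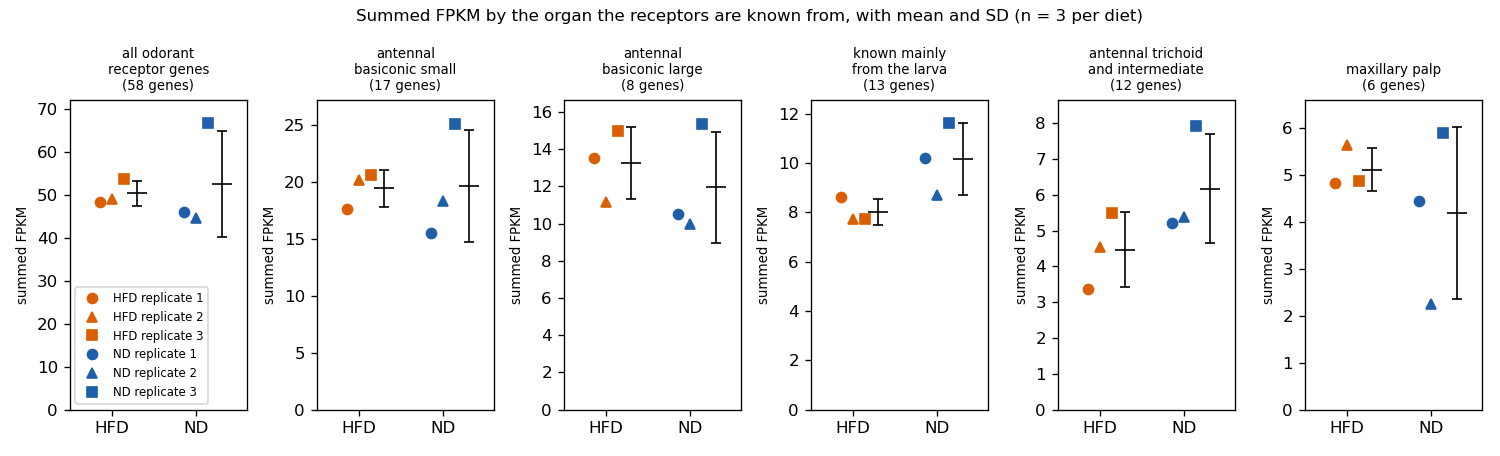
Summed FPKM per sample of all 58 odorant receptor genes and of 5 groups by the organ or sensillum the receptors are known from, HFD (orange) left of ND (blue), with mean and SD (n = 3 per diet). The sums overlap between diets except in the group known mainly from the larva, with 7.71 to 8.61 FPKM in HFD samples and 8.69 to 11.6 FPKM in ND samples.

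Other genes of the antenna were examined for how much antennal RNA each sample held. The list held 22 genes for odorant-binding proteins, ionotropic receptors and others, of which 15 had values and 12 were tested. Their sum was 631, 642 and 647 FPKM in HFD samples, against 548, 515 and 717 FPKM in ND samples. Most of each sum came from a10 and Obp19a, with means of 308 and 164 FPKM over the 6 samples. The ionotropic and gustatory receptor genes of the list had means of at most 1.08 FPKM (Ir75a). As a measure of antennal RNA the sum therefore rests on few genes. None passed an adjusted or an unadjusted p of 0.05 in limma, 8 had a positive and 4 a negative log2 difference, and the median was 0.06. ND replicate 3 was the highest sample for 9 of these 12 genes, and the part of antennal RNA content in the receptor values was not tested. The neuron, glia, muscle and photoreceptor lists likewise had no gene past either threshold, and ND replicate 3 was highest for 3 of 4, 4 of 5, 5 of 5 and 12 of 12 tested genes. In the fat body list 2 of 4 tested genes were higher and 1 lower in HFD samples at an unadjusted p under 0.05, and none at an adjusted p.

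Co-receptors and partners of olfactory neurons were compared as a list of 11 genes, of which 8 had values and 7 were tested. None passed an adjusted or an unadjusted p of 0.05 in limma, with 5 positive and 2 negative log2 differences. Ir25a and Ir76b, co-receptors of the ionotropic receptor family, were both measured well above most Or genes. Ir25a had 4.001, 5.44 and 4.67 FPKM in HFD samples, against 4.26, 4.42 and 5.05 FPKM in ND samples. Ir76b had 4.67, 5.76 and 4.89 FPKM in HFD samples, against 3.90, 3.18 and 4.65 FPKM in ND samples. All HFD samples of Ir76b lay above the ND samples, by a narrow margin, an order that 4.54% of all genes tested showed. For Ir76b limma gave a difference of 0.32 on the log2 scale (adjusted p = 0.783). Gr63a, a subunit of the carbon dioxide receptor, overlapped between the diets.

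Factors that set which receptor a neuron expresses formed a list of 12 genes, of which 10 were tested. No gene of it passed an adjusted or an unadjusted p of 0.05 in limma, with 4 positive and 6 negative log2 differences and a median of -0.08. The POU factor gene acj6, needed for receptor choice in many olfactory neurons, had 3.62, 4.34 and 4.92 FPKM in HFD samples, against 5.40, 5.09 and 6.23 FPKM in ND samples. All HFD samples of acj6 lay below the ND samples, an order that 8.07% of all genes tested showed, and Xbp1 of the same list showed it as well. For acj6 limma gave a difference of -0.32 ± 0.13 (SE) on the log2 scale, with an unadjusted p of 0.0532 and an adjusted p of 0.736. The related factor gene pdm3 had a log2 difference of 0.09 (limma, adjusted p = 0.998) and overlapped between the diets.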

How the data were processed

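The 6 RNAseq samples were assigned to HFD or ND from their labels. The authors sequenced poly(A) RNA (Illumina HiSeq), aligned reads to the genome, used only those that mapped uniquely, and deposited FPKM values per gene. The deposited description calls the unit RPKM. HISAT is named, without version, in the submitters' processing notes. Genome build, annotation and counting tool are not given in the sources used here, and coordinates and overlaps are from the BDGP6 annotation. Symbols were found for 11793 of the 11922 identifiers, and the first of several rows was taken for 101 identifiers.

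Genes averaging at least 0.5 FPKM were compared on log2(FPKM + 1) with limma 3.58.1 in R 4.3.3 (lmFit, then eBayes with trend). Single genes also had an exact permutation test. No count model was used. Depth was estimated from low values of 6033 genes with 1 annotated transcript, of which 62.2% to 67.3% lay within 0.15 of a whole fragment in a sample, against 30% by chance. For HFD replicate 2 a depth near 2 times the estimate scored similarly and the lower was taken. On simulated data for HFD against ND with 8362 genes, limma found 88% of log2 changes of 2 and 67% of log2 changes of 1, and called 7 unchanged genes. In the simulation 100 genes of each size were changed, all at a mean above 2 on the log2(FPKM + 1) scale. Noise was independent between samples, so no sample stood apart as ND replicate 3 did. With so many changed genes the adjustment is less strict, so these shares may be too high for the real samples. The share found at the low levels of most receptor genes was not tested. Other steps used Python 3.11.15 with pandas 2.3.3, numpy 2.4.6 and, for figures, matplotlib 3.10.9.

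The members, the groups and the gene lists (antenna, gut, photoreceptor, fat body, neuron, glia, muscle, partners and receptor choice) were chosen with earlier results of these data known. The rule for genes described with values took the 15 highest means, the 5 largest and 5 smallest log2 differences, members with an unadjusted p under 0.05, members whose diets do not overlap, and co-expressed or near-identical sets. Or13a, Or42a, Or47b and others outside it are named only to account for every member, and Or35a for being the coeloconic gene. The alternatives were no filter, a minimum of 1 FPKM, a pseudocount of 0.1, median-ratio scaling, quantile normalization, scaling without gut genes, scaling to the summed receptor FPKM, limma without trend, the replicate number as a block, summed rows and each sample left out in turn.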

Additional observations from a re-analysis of the deposited data

How the results depend on the processing

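No odorant receptor gene passed an adjusted p of 0.05 in limma in any of the 16 alternatives, where the lowest adjusted p was 0.296 (Or22b) over 373 values. Of these values 23 changed direction, and 12 of the 24 genes kept theirs in every alternative that tested them. A gene under the filter in an alternative has no value there. This holds for Or33c without HFD replicate 1, Or9a without HFD replicate 3, and the scarcer genes, these 2 among them, at a minimum of 1 FPKM. At an unadjusted p under 0.05 the number of receptor genes was 1 in the comparison reported, 3 without the filter and 3 without trend (Or1a, Or59b and Or10a), 2 with a pseudocount of 0.1 and 2 with median-ratio scaling (Or1a and Or59b), and 0 to 2 with 1 sample left out. The number of all genes at an adjusted p under 0.05 was 4, and 1 without the filter, 7 with median-ratio scaling, 2 with scaling to the summed receptor FPKM, 1 with the replicate block and 1 to 5 with 1 sample left out. At an unadjusted p it was 561, and 308 with scaling to the summed receptor FPKM and 376 to 1044 with 1 sample left out. The causes were not tested. Deviations of same-numbered samples from their diet means correlated at 0.308, -0.51 and -0.361. With 3 samples per diet these deviations depend on each other, so the check cannot tell whether the replicate numbers pair the samples. With the number as a block, 0 receptor genes passed an adjusted and 1 an unadjusted p. The log2 difference turned to -0.0455 for Or65b under quantile normalization, and to 0.0083 for Or42b and 0.0011 for Or83a under scaling to the summed receptor FPKM. With 1 sample left out it ran from -0.22 to 0.10 for Or43b, -0.15 to 0.10 for Or42b, -0.11 to 0.31 for Or92a, -0.24 to 0.0461 for Or63a, -0.16 to 0.15 for Or83a, -0.0292 to 0.28 for Or47a, -0.11 to 0.28 for Or7a, -0.48 to 0.21 for Or59c, -0.23 to 0.13 for Or47b, -0.37 to 0.0079 for Or85f, -0.0413 to 0.36 for Or42a and -0.16 to 0.20 for Or65b. The median over the receptor genes, 0.0006 as reported, was -0.09 with a minimum of 1 FPKM, and with 1 sample left out it ran from -0.04 to 0.10 (0.10 without ND replicate 3) and the ratio of the summed receptor FPKM from 0.894 to 1.11 (1.11 without ND replicate 3). Scaling to the summed receptor FPKM and quantile normalization give no value for that ratio, and no alternative was run for Orco, which was not analysed here. A single fragment moves the low members visibly. Zeros were most frequent in HFD replicate 2, whose depth estimate is uncertain, and the part of depth in them was not tested.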
